A study of Homo sapiens with 6 samples.

Results

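The gene NT5E and the genes around it that make, sense and clear adenosine outside the cell were read in rhabdomyosarcoma cells with and without an induced microRNA, miR-22. NT5E was chosen by its measured difference between induced and untreated miR-22 cells, among the largest falls in these data, and the others because they act in the same pathway. Of 9 genes listed, 8 had a row of their own among the 18417 genes that the array table names singly; each had 1 row. ADORA2A, the gene of an adenosine receptor, shared its row with other gene symbols and is not described.

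The RNA came from 6 cultures of RD18, an established line from an embryonal rhabdomyosarcoma (a cancer whose cells resemble unfinished skeletal muscle), with 1 Affymetrix Human Gene ST array for each culture. In the derivative NpBI-22, called miR-22 cells here, doxycycline switches on miR-22; it was profiled with doxycycline at 1 µg/ml for 6 days (induced, 2 biological replicates) and untreated (non-induced, 2 biological replicates). The derivative NpBI-206AS gave 1 array after the same doxycycline treatment and 1 untreated array. What the NpBI-206AS construct expresses, and whether either derivative is 1 clone, is not in the labels. Between its 2 arrays, an effect of doxycycline and one of the construct cannot be separated. All values are the authors' log2 expression, in which a difference of 1 is 2-fold; levels of different genes are not compared, because each row has its own probes.

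ATP that leaves a cell is cut stepwise at its surface. ENTPD1 (CD39) and ENTPD2 remove phosphates from ATP and ADP, ENPP1 cuts ATP to AMP and pyrophosphate, and NT5E (CD73) turns AMP into adenosine. Adenosine then binds receptors such as ADORA1, which lowers cyclic AMP (cAMP) in the cell, and ADORA2B, which raises it; the signal ends when SLC29A1 (ENT1) carries adenosine into the cell or ADA converts it to inosine. CD73 is also a widely used surface marker of mesenchymal cells. A microRNA lowers mRNAs that pair with its seed, bases 2 to 8 of its strand.

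The mature microRNA that the induced construct is named for, and the DNA before the start of NT5E, the gene of the 8 whose level differed most, are given as the sequences behind the comparison. Both are from RefSeq, build GRCh38.p14. The microRNA lies at chr17:1713914-1713935 on the minus strand, and its seed is in capitals. The NT5E window covers the 250 bases before the gene's start at chr6:85449833-85450082 on the plus strand. Capitals there mark matches, on either strand, to the cAMP response half-site TGACG and to the GC box GGGCGG.
hsa-miR-22-3p: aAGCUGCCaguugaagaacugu
NT5E: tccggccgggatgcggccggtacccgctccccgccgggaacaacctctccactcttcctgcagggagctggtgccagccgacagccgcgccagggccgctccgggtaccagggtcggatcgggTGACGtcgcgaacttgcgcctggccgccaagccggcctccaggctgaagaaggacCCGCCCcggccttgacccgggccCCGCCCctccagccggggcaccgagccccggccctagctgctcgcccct

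The half-site begins at position -127 from the start of NT5E and the GC boxes at -72 and -49. Among 35116 promoter windows of this length, 21.2% hold the half-site and 42.6% the GC box, so neither sets this window apart. Of the 8 genes, 3 hold the half-site in at least 1 window (NT5E, ADORA2B and ENTPD1, the last with 5 windows) and 7 hold the GC box, all but ENTPD1. The hypoxia response core ACGTG, present in 18.5% of all windows, was found before SLC29A1 and ENPP1. The E-box CAGCTG, which muscle regulatory factors bind and which 14% of windows hold, was found before SLC29A1. Neither was in the window of NT5E. These are matches of letters, not sites shown to be bound. Sequences of mRNAs were not used here, so pairing of the miR-22 seed with any of these genes was not examined.

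Muscle genes were checked against the labelled cell type. MYOD1, the master regulator of muscle fate, lay between 8.87 and 9.74 on all 6 arrays and the acetylcholine receptor gene CHRNA1 between 11.38 and 11.79. Of 10 muscle genes measured, 0 lay under the lower quartile (3.92 to 4.01) on all 6 arrays. MYF5, another muscle regulator (3.88 to 3.96), was below it on every array but induced miR-22 replicate 1, where it read 3.956 against 3.952. Of 10 blood genes measured, 3 lay under the lower quartile on all 6 arrays, the leukocyte gene PTPRC among them. The macrophage gene CD68 read 5.27 to 6.37. Of all 18417 genes, 2315 lay under that quartile on all 6 arrays, so counts in lists of 10 do not by themselves settle the cell type. MIR22HG, the host gene of miR-22, read 10.02 and 10.01 in induced miR-22 cells, against 6.27 and 6.72 in the non-induced ones, and 6.32 in induced and 6.41 in non-induced NpBI-206AS cells. It was high only on the 2 arrays labelled as induced miR-22 cells. Signal from a transcript of the construct and signal from the host gene itself cannot be told apart. Each array also has a code in its label: both induced miR-22 arrays have the prefix R715, replicate 1 of the non-induced ones has R509, and R587 is shared by replicate 2 and both NpBI-206AS arrays. The meaning of the prefix is not in the labels. Should it stand for a batch, then induction of miR-22 and batch cannot be told apart.

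NT5E was lower in induced miR-22 cells than on any other array. Its log2 expression was 6.53 and 6.85 in induced miR-22 cells, against 9.35 and 9.09 in the non-induced ones. It was 9.56 in induced and 10.07 in non-induced NpBI-206AS cells. The 2 induced miR-22 arrays thus lay together at the bottom, with differences of -2.81 to -2.23 from the non-induced miR-22 arrays depending on the pair taken, and no overlap. The means were 6.69 ± 0.23 in induced and 9.22 ± 0.18 in non-induced miR-22 cells (SD, n = 2 each), a difference of -2.52 or 5.75-fold. This was the third largest fall among the 18417 genes (rank 3), which is how the gene came to be chosen, so the difference is given as a description and without a test. In bulk RNA like this, fewer cells with NT5E mRNA and less NT5E mRNA in each cell cannot be told apart.

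**Figure D1:**
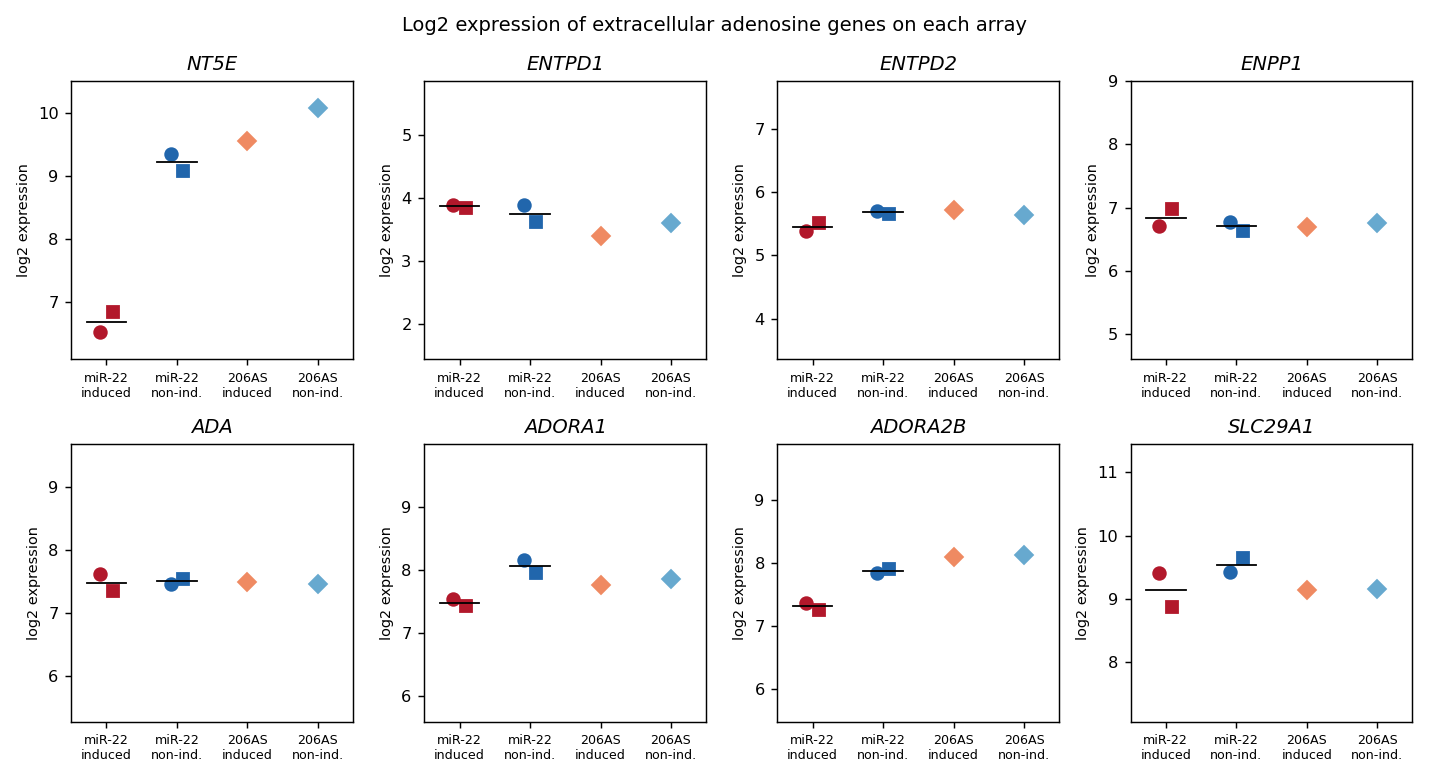
Log2 expression of 8 extracellular adenosine genes (vertical axis, every panel spanning the same number of log2 units) on each of 6 arrays, by group; in miR-22 cells circles are replicate 1, squares replicate 2 and black lines the mean of 2 arrays, and each NpBI-206AS group is 1 array (diamond). NT5E at 6.53 and 6.85 in induced miR-22 cells stands far under its other 4 arrays (9.09 to 10.07), while the other genes span 0.87 or less over all 6 arrays.

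NT5E also differed among the 4 control arrays, though less. They spanned 0.99 on the log2 scale (1.98-fold), the widest span of the 8 genes. In order of level, induced miR-22 cells came lowest, then non-induced miR-22 cells, then induced and then non-induced NpBI-206AS cells. Induced NpBI-206AS cells lay 0.22 above the nearer of the non-induced miR-22 replicates, less than the 0.26 between these replicates. Non-induced NpBI-206AS cells were 0.99 above the non-induced miR-22 array with the same code prefix (replicate 2) and 0.86 above the mean of both. Induced NpBI-206AS cells were 0.51 below the non-induced ones, or 1.43-fold, more than the gap between the 2 arrays of either miR-22 group (0.32 and 0.26) but with 1 array each and no test. That difference ranked 215 among the falls of all 18417 genes in NpBI-206AS cells and was below the 2-fold mark that 0.673% of rows reached. Taking it off the difference in miR-22 cells left -2.01 for NT5E.

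NT5E was lower in induced miR-22 cells whichever control was used, but the size of the difference depended on the control. The mean of the induced miR-22 arrays differed by -2.39 from non-induced replicate 2, by -2.65 from replicate 1, by -2.87 from the induced NpBI-206AS array and by -2.88 from the 3 control arrays with prefix R587. The non-induced NpBI-206AS array was the highest control, at 10.07, so the difference from it was larger than any of these. All these comparisons share the same 2 induced arrays, so they are not separate evidence.

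Across the array, 2.01% of rows were called lower and 1.59% higher in miR-22 cells on induction (limma, adjusted p under 0.05), or 669 and 531 rows; with each array centred on its median these were 574 lower and 718 higher. Of the 7 genes other than NT5E, 0 were called in limma, with 2 at an unadjusted p under 0.05, ADORA1 and ADORA2B. Over all rows, 21.6% had such a p. Leaving out NT5E, which was chosen for its fall between these arrays, the induced arrays lay below both non-induced miR-22 arrays without overlap for 4 of the 7 genes (ENTPD2, ADORA1, ADORA2B and SLC29A1), a pattern that 26% of all rows showed. For 0 of the 7 were both induced arrays above, as in 25% of all rows. In 3 genes (ENTPD2, ADORA1 and ADORA2B) the induced miR-22 arrays also lay below all 4 control arrays, as in 18.3% of rows.

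**Figure D2:**
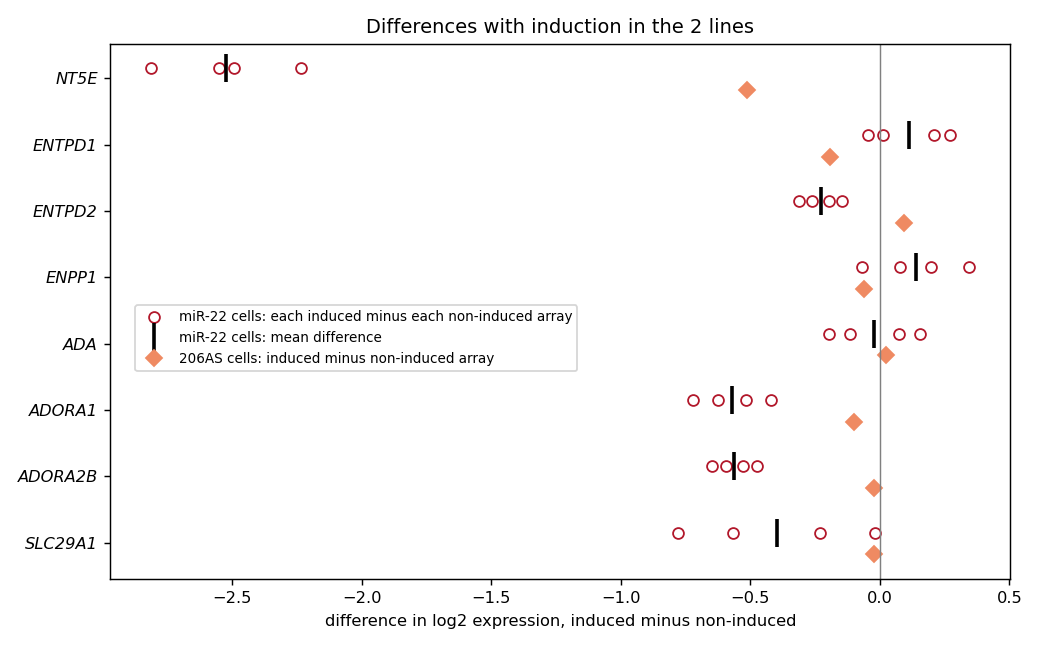
Differences in log2 expression, induced minus non-induced (horizontal axis), for 8 genes; open circles are the 4 pairs of an induced and a non-induced miR-22 array, bars their mean and diamonds the single pair of NpBI-206AS arrays. The miR-22 differences of NT5E lie between -2.81 and -2.23, those of ADORA1 and ADORA2B between -0.72 and -0.42, and the NpBI-206AS differences of all genes but NT5E between -0.19 and 0.09.

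The surface enzymes that come before NT5E showed no difference that passed. ENTPD1 read 3.90 and 3.84 in induced miR-22 cells, against 3.88 and 3.63 in the non-induced ones, and 3.41 in induced and 3.60 in non-induced NpBI-206AS cells. It was below the lower quartile on all 6 arrays and may not exceed background, so its differences may be understated. Its difference in miR-22 cells was 0.11, with a 95% interval of -0.30 to 0.52 (limma adjusted p = 0.77).

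ENTPD2, which mainly removes a phosphate from ATP, read 5.39 and 5.51 in induced miR-22 cells, against 5.70 and 5.66 in the non-induced ones, and 5.73 in induced and 5.63 in non-induced NpBI-206AS cells. The groups of miR-22 cells did not overlap, but the difference of -0.23 (-0.60 to 0.14) did not pass (limma adjusted p = 0.46). ENPP1 read 6.71 and 6.98 in induced miR-22 cells, against 6.78 and 6.63 in the non-induced ones, and 6.69 in induced and 6.75 in non-induced NpBI-206AS cells. Its groups overlapped, with a difference of 0.14 (-0.29 to 0.56, limma adjusted p = 0.72). A difference of ENTPD2 or ENPP1 as large as that of NT5E lies outside these intervals, which are not adjusted for the number of genes; for ENTPD1, given its low signal, the interval bounds the probe signal only.

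Both adenosine receptor genes with a row were lower in induced miR-22 cells in every pair of arrays, by less than NT5E and without passing. ADORA1 read 7.53 and 7.44 in induced miR-22 cells, against 8.16 and 7.95 in the non-induced ones, and 7.76 in induced and 7.86 in non-induced NpBI-206AS cells. The means of 7.49 ± 0.068 in induced and 8.06 ± 0.14 in non-induced miR-22 cells (SD, n = 2 each) differed by -0.57 (-0.97 to -0.18, limma adjusted p = 0.11), or 1.49-fold. The NpBI-206AS arrays fell between the 2 groups, so the difference from the induced NpBI-206AS array was only -0.27 (limma adjusted p = 0.59).

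ADORA2B read 7.37 and 7.25 in induced miR-22 cells, against 7.84 and 7.90 in the non-induced ones, and 8.10 in induced and 8.12 in non-induced NpBI-206AS cells. All 4 control arrays lay within 0.28 of each other and the induced miR-22 arrays lay under them. The means of 7.31 ± 0.086 in induced and 7.87 ± 0.039 in non-induced miR-22 cells (SD, n = 2 each) differed by -0.56 (-0.93 to -0.19, limma adjusted p = 0.10), or 1.48-fold. Against all 4 control arrays together, which are not replicates of 1 group, ADORA2B fell by 0.68 (SE 0.13, limma adjusted p = 0.014), 1.60-fold; 13.7% of all rows were called in that comparison, and of the 7 genes ADORA2B alone. Without induced replicate 1 or 2 the call was lost (adjusted p = 0.085 and 0.11), with differences of -0.74 and -0.62. Against the induced NpBI-206AS array alone, the comparison in which both had doxycycline, ADORA2B differed by -0.79 (limma adjusted p = 0.14); there 0.39% of rows were called and 0 of the 7 genes, 1 of them at an unadjusted p under 0.05, as 15.7% of rows were.

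Neither of the 2 genes among the 8 that clear adenosine showed a difference that passed. SLC29A1, the transporter, read 9.41 and 8.87 in induced miR-22 cells, against 9.43 and 9.64 in the non-induced ones, and 9.13 in induced and 9.16 in non-induced NpBI-206AS cells. The 2 induced replicates were 0.55 apart, the widest replicate gap of the 8 genes, and both NpBI-206AS arrays lay between them. The difference of -0.40 (-0.96 to 0.17) did not pass (limma adjusted p = 0.39). ADA read 7.62 and 7.35 in induced miR-22 cells, against 7.46 and 7.54 in the non-induced ones, and 7.49 in induced and 7.46 in non-induced NpBI-206AS cells. Its controls all fell inside the span of the induced replicates, and the difference was -0.02 (-0.44 to 0.40, limma adjusted p = 0.96).

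When the response of miR-22 cells was tested against that of NpBI-206AS cells, 0% of rows passed in limma (0 rows, 2957 at an unadjusted p under 0.05), and none of the 7 genes reached an unadjusted p under 0.05. The responses left after taking off that of NpBI-206AS cells were -0.54 for ADORA2B (-1.18 to 0.11) and -0.47 for ADORA1 (-1.16 to 0.22). Between the lines without doxycycline, non-induced NpBI-206AS minus non-induced miR-22 cells, 0% of rows passed as well (0 rows, 1145 at an unadjusted p under 0.05), and the 7 genes differed by -0.38 (SLC29A1) to 0.25 (ADORA2B), with 0 at an unadjusted p under 0.05. The single NpBI-206AS array of each of these comparisons is assumed to vary like the miR-22 groups. In NpBI-206AS cells the 7 genes other than NT5E differed between the 2 arrays by -0.19 (ENTPD1) to 0.09 (ENTPD2), and 0 of them reached 2-fold.

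The wider purine system was read from 7 further lists with 98 genes, of which 91 had a row. In induced against non-induced miR-22 cells 1 of the 91 rose, 0 fell and 90 did not pass (limma), with 13 (14.3%) at an unadjusted p under 0.05; of all 18417 genes, 1.73% rose, 1.53% fell and 21.2% had such a p. The median difference was 0.02 over the 91 genes and 0.01 over all genes. The gene that rose was PDE4B, a phosphodiesterase that breaks down cAMP, the second messenger of adenosine receptors. It read 7.82 and 7.91 in induced miR-22 cells, against 6.51 and 6.52 in the non-induced ones, and 6.74 in induced and 6.68 in non-induced NpBI-206AS cells. The difference was 1.35 (SE 0.15, limma adjusted p = 0.022), or 2.55-fold, and every control array lay more than 1 log2 unit below both induced ones. PDE4B was the single call among 29 genes of cAMP signalling, whose median was 0.02. Without any 1 of the 4 miR-22 arrays no row passed, and PDE4B then had a difference of 1.31 to 1.40 and an adjusted p of 0.11 to 0.40.

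None of the other surface enzymes that act on nucleotides passed (limma, 0 of 11, also 0 at an unadjusted p under 0.05, median 0.06); ENPP2, a secreted lysophospholipase D of the ENPP family, differed most, by 0.51 (limma adjusted p = 0.25). Among 10 intracellular NTPDases and nucleotidases 0 passed (limma, 3 at an unadjusted p under 0.05, median 0.08); ENTPD7 differed by 0.77 (limma adjusted p = 0.056), and with each array centred on its median it passed (0.84, adjusted p = 0.046). Among 14 further genes of adenosine and AMP metabolism, most of them acting inside the cell, 0 passed (limma, 3 at an unadjusted p under 0.05, median -0.19). ADA2 and DPP4 of this list lie outside the cell and differed by 0.22 and -0.35 (limma adjusted p = 0.49 and 0.29). AMPD3, an AMP deaminase, differed by -1.11 (limma adjusted p = 0.075). It read 6.28 and 6.52 in induced miR-22 cells, against 7.19 and 7.82 in the non-induced ones, and 7.74 in induced and 7.96 in non-induced NpBI-206AS cells. The induced arrays of AMPD3 thus lay below every control, but the non-induced replicates were 0.63 apart.

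The 6 other nucleoside transporters gave 0 calls in limma, 2 at an unadjusted p under 0.05 and a median of 0.07. SLC29A2, an equilibrative transporter like SLC29A1, differed by -0.89 (limma adjusted p = 0.11). SLC29A3 differed by nearly as much in the other direction, 0.86 (limma adjusted p = 0.11). The 8 ATP release channels gave 0 calls (limma, 1 at an unadjusted p under 0.05, median -0.03), with the pannexin gene PANX1 differing by 0.46 (limma adjusted p = 0.15). The 13 genes with P2 receptor names, most of which sense ATP and related nucleotides, gave 0 calls (limma, also 0 at an unadjusted p under 0.05, median -0.09). Of these, P2RX6 differed most, by -0.44 (limma adjusted p = 0.24).

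**Figure D3:**
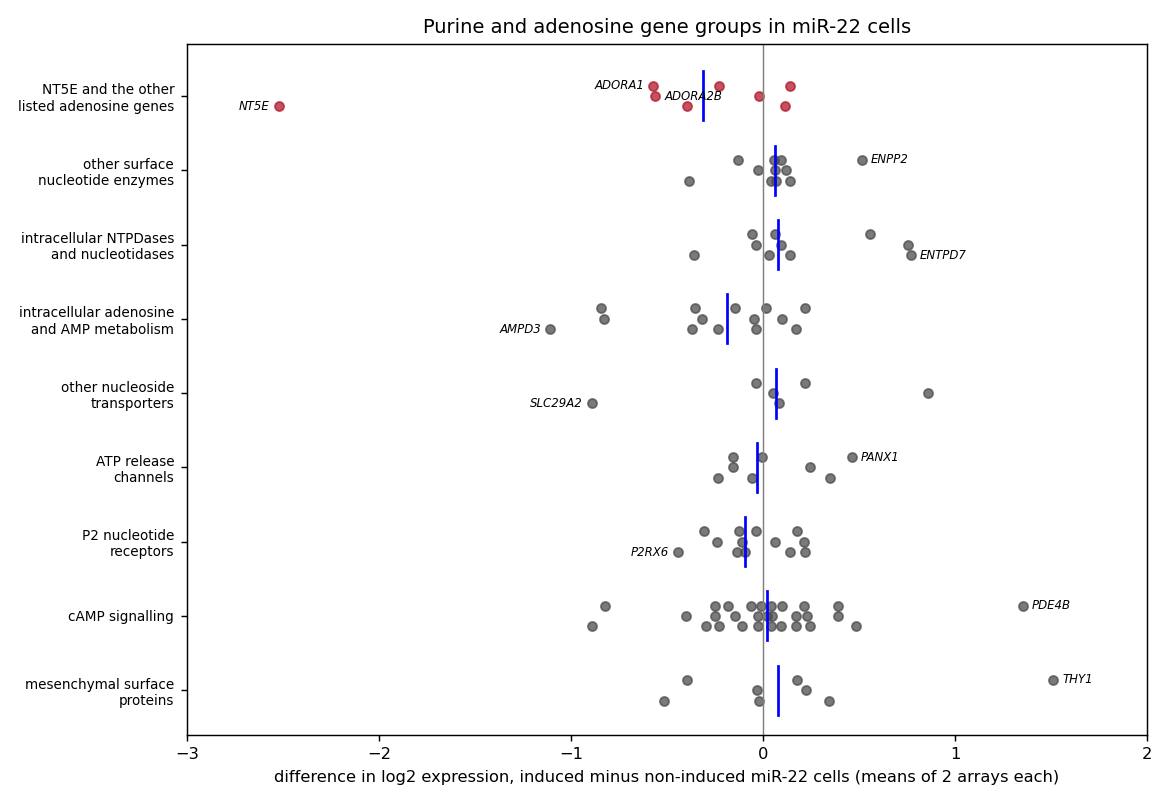
Differences in log2 expression of induced minus non-induced miR-22 cells (horizontal axis, means of 2 arrays each) for every measured gene of 9 lists; each point is a gene and blue lines are list medians. NT5E at -2.52 lies apart from every other gene shown, the next lowest being AMPD3 at -1.11, and PDE4B at 1.35 and THY1 at 1.51 lie highest.

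The genes with the profile nearest to that of NT5E, by Euclidean distance between the 6 log2 values after subtraction of each gene's mean, were TEX15 (distance 0.75), CENPE (0.78), CRYBG1 (0.81), ELOVL6 (0.90), LTBP1 (1.12) and ADCY10P1 (1.13). TEX15 is a germ-cell gene, CENPE a kinetochore motor, ELOVL6 a fatty acid elongase and LTBP1 a binding protein of latent TGF-beta. Their Pearson r with NT5E lay between 0.95 and 0.98 over 6 arrays, as a description of points that share the same arrays. LTBP1 read 7.38 and 7.47 in induced miR-22 cells, against 9.20 and 9.50 in the non-induced ones, and 9.44 in induced and 9.65 in non-induced NpBI-206AS cells. The distance was taken over all 6 arrays, so likeness to NT5E in NpBI-206AS cells is part of how these genes were chosen; ADCY10P1, a pseudogene, was nonetheless 0.57 higher in induced than in non-induced NpBI-206AS cells.

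**Figure D4:**
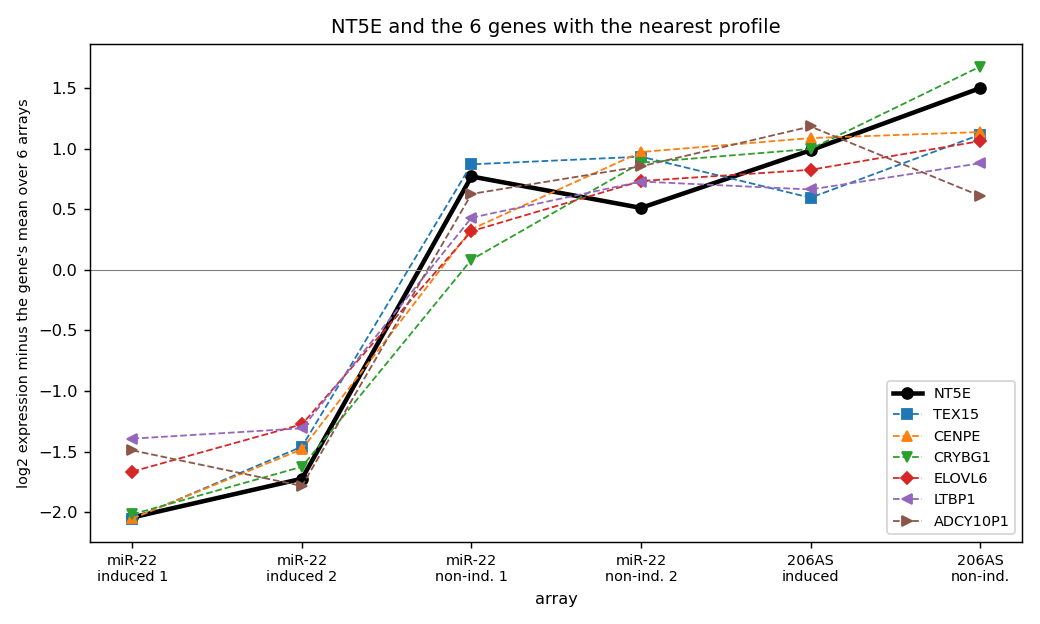
Log2 expression minus each gene's mean over 6 arrays (vertical axis) for NT5E (black) and the 6 genes nearest to it; lines join the values of 1 gene over arrays that have no order in time. All 7 genes are lowest on the 2 induced miR-22 arrays, and NT5E, TEX15, CENPE, CRYBG1, ELOVL6 and LTBP1 are highest on the non-induced NpBI-206AS array.

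Some muscle markers also fell in the comparison NT5E was chosen from. Of 10 measured, 3 fell (CHRNG by 1.33, DES by 1.07 and ACTC1 by 1.00; limma adjusted p = 0.026, 0.038 and 0.033, each lost without any 1 of the 4 miR-22 arrays) and 0 rose, with 7 at an unadjusted p under 0.05, against 1.53% of all genes that fell and 21.2% with such a p. Both induced arrays lay below both non-induced ones for 8 of the 10 and above them for the other 2, MYF5 and MYF6, by 0.04 and 0.52 (limma adjusted p = 0.92 and 0.13). Of all 18417 genes, 4511 lay below and 5131 above in the same way. The list was chosen with earlier results of these data known, so its shares are a description and not a test. In induced and non-induced NpBI-206AS cells CHRNG read 8.59 and 7.95 and DES 8.96 and 8.81, above both induced miR-22 arrays. MYOD1, CHRNA1 and CDH15 also lay above both there. ACTC1 read 11.19 and 11.30 there, close to its 11.17 and 11.16 in induced miR-22 cells. MYOG read 8.57 and 8.86 there, below its 9.50 and 9.01 in induced miR-22 cells. MYMK read 6.41 and 6.88 there, against 6.81 and 6.21 in induced miR-22 cells. The list's mean level was 7.82 to 7.97 on the induced and 8.41 to 8.61 on the non-induced miR-22 arrays. It was 8.12 in induced and 8.06 in non-induced NpBI-206AS cells. Blood markers (10 measured) averaged 4.26 to 4.31 on the induced and 4.38 to 4.39 on the non-induced arrays, endothelial markers (10 measured) 4.63 to 4.81 and 4.84 to 4.91, and epithelial markers (9 measured) 5.56 to 5.59 and 5.51 to 5.60, with 0 called in each in limma and 1, 2 and 0 at an unadjusted p under 0.05. Of these, CD68, ERG and KRT18 differed most, by -0.73, -0.57 and 0.40 (limma adjusted p = 0.080, 0.23 and 0.30). The part of any of these in the difference of NT5E was not tested.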

How the data were processed

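The deposited table holds 33297 rows of log2 expression, 1 column per array, which per the submitters' processing notes the authors made in Partek by RMA; versions and genome build: not given in the sources used here. RMA subtracts background and quantile-normalizes, so a uniform shift of every transcript is removed. Of the rows, 19460 carried 1 gene symbol, 1754 several and 12083 none; symbols were updated by gene ID (19429 found, GRCh38.p14), and a gene was read from its row with the highest mean over the 6 arrays.

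limma 3.58.1 in R 4.3.3 was fitted to all rows with a mean per group over 6 arrays (2 residual and 3.62 prior degrees of freedom), two-sided, and p-values were adjusted over all rows by Benjamini-Hochberg. The comparison with all 4 control arrays used 2 means. The NpBI-206AS arrays were compared with each other by difference alone. Precision is limited by the number of arrays. Alternatives changed the normalization, the filter on dim rows, the moderation and the arrays used.

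The members and lists were chosen with earlier results of these data known. Named genes were all members, MIR22HG and the 6 genes nearest to NT5E. From each list up to 4 that passed without overlap were named, otherwise the 1 with the largest difference. MYOD1, CHRNA1, CDH15, MYF5, MYF6, MYOG, MYMK, PTPRC, SLC29A3, ADA2 and DPP4 were named after their values were seen.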

Additional observations from a re-analysis of the deposited data

Results flagged for a closer look

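ENTPD2 was picked out because its response had opposite signs in the 2 lines: every induced miR-22 array was below both non-induced miR-22 arrays, by 0.15 to 0.31, while the induced NpBI-206AS array was 0.09 above the non-induced one. The difference between the responses was -0.32 on the log2 scale (95% interval -0.97 to 0.32) and did not pass (limma adjusted p = 0.79). Opposite signs were not particular to ENTPD2. ENTPD1 (0.11 in miR-22 and -0.19 in NpBI-206AS cells), ENPP1 (0.14 and -0.06) and ADA (-0.02 and 0.02) had them as well, with miR-22 groups that overlapped. How many of all rows had opposite signs was not counted.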

How the results depend on the processing

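Under every alternative run, NT5E kept its direction in all 6 comparisons. In induced minus non-induced miR-22 cells its difference ran from -2.68 to -2.36 with 1 miR-22 array left out and from -2.57 to -2.45 under the others. NT5E was chosen for this fall, so its kept direction on the induced miR-22 arrays is a description and not support. The 7 other members gave 0 calls in that comparison under all 11 alternatives. The alternatives without 1 miR-22 array left a group with 1 array, so their lack of calls says nothing about these genes. The total of 1200 called rows became 0 without any 1 miR-22 array, 2609 without the dimmest 50 percent of rows, and 2955 with the replicate block on the 4 miR-22 arrays (1200 on these 4 arrays without it), which also called ENTPD7, AMPD3, SLC29A2 and CD68 (adjusted p = 0.040, 0.024, 0.033 and 0.045). The labels number the replicates without saying that the numbers pair them; deviations of same-numbered arrays correlated at 0.20, which with 2 pairs settles nothing. Without the dim rows, which removes ENTPD1 and ENTPD2, these 4 were called too (adjusted p = 0.024, 0.025, 0.044 and 0.037), and ADORA1 as well as ADORA2B passed against the 4 controls (2 members). Leaving out arrays gave 0 to 1 members there, and 897 to 7463 called rows in place of 4576; with the 3 controls of prefix R587 alone there were 7463. Against the induced NpBI-206AS array, 130 calls became 747 without dim rows, 227 with trend and robust moderation, and 0 with any 1 miR-22 array left out. In NpBI-206AS cells 224 rows were 2-fold apart, or 36 without dim rows. The cause of these shifts was not tested. Averaging a gene's rows changed nothing, since each member has 1 row. The arrays carry no detection calls, so for ENTPD1 the low signal limits what can be seen.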

Other observations

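NT5E encodes CD73, which is commonly stained together with other surface proteins of mesenchymal cells. Of 8 such genes 1 rose and 0 fell in miR-22 cells on induction (limma), with a median of 0.08; of all 18417 genes 1.73% rose and 1.53% fell. THY1, which encodes CD90, rose by 1.51 (SE 0.19, adjusted p = 0.025), or 2.85-fold. It read 10.17 and 9.78 in induced miR-22 cells, against 8.47 and 8.46 in the non-induced ones, and 9.02 in induced and 8.62 in non-induced NpBI-206AS cells. Both induced miR-22 arrays lay above every control, and the NpBI-206AS response was 0.40. Without any 1 of the 4 miR-22 arrays the difference of THY1 was 1.31 to 1.71 and did not pass (adjusted p = 0.11 to 0.40). ENG, which encodes CD105, read 7.33 and 7.30 in induced miR-22 cells, against 8.10 and 7.56 in the non-induced ones; the difference of -0.52 did not pass (adjusted p = 0.25). CD44, a hyaluronan receptor, differed by 0.35 (adjusted p = 0.28). ENG and CD44 were named after their values were seen.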
